A study of Glycine max and Zea mays with 6 samples.

Results

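Soybean genes for histone deacetylases, the enzymes that remove acetyl groups from histones, were described by the histone marks lying on them in leaf. They were HDA9, HDA17, SRT4 and HDA4, found by symbol in a RefSeq gene table of the assembly Glycine_max_v4.0. They are 4 of the 20 genes whose symbol is HDA or SRT followed by a number, among 46816 protein-coding genes on the 20 chromosomes. The members were selected on covered length: HDA9, HDA17 and SRT4 had the longest summed length under the marks of the series, at 15076, 11480 and 10882 bp, and HDA4 had 0 bp. The next gene in that order, HDA2, had 10621 bp. These lengths chose the genes, so they are given as a description with no test.

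The study profiled chromatin by immunoprecipitation and sequencing (ChIP-seq), and its title puts the marks to use for gene annotation. Soybean plants (Glycine max, accession William82) received no treatment and grew for about 10 days at 25 °C under a cycle of 16 h light and 8 h dark. From their leaves 3 modifications of histone H3 were profiled, with 1 library each: H3K4me3 and H3K36me3, the trimethylated lysines 4 and 36, and H3K56ac, the acetylated lysine 56. The series also holds a maize ear library and 2 inputs, which were not analysed here. No value below has a replicate check. The deposited lists give peak positions alone, so read depth is unknown, and where no peak is listed the signal may still lie under the authors' threshold.

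Histone deacetylases of plants fall into 3 families. The HDA genes code for zinc-dependent enzymes related to yeast Rpd3 and Hda1, the SRT genes for sirtuins, which consume NAD+, and the HDT or HD2 genes for a family known from plants alone. In plants H3K4me3 is typical of the 5′ ends of active genes, H3K56ac sits near the entry point of DNA on the nucleosome, and H3K36me3 is laid down behind the transcribing polymerase. Soybean HDA numbers run in chromosome order in the table, at 16 of 16 steps from HDA1 to HDA18. The roles of Arabidopsis genes of the same number were therefore not assigned to them.

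Nearly the whole series of symbols carried all 3 marks. H3K4me3 lay within 1 kb of an end at 19 of 20 HDA and SRT genes, against 73.1% of all protein-coding genes. H3K56ac did so at 19 of 20, against 69.5% of all. H3K36me3 overlapped the gene at 19 of 20, against 51.1% of all. The same 19 genes had all 3 marks (exact 95% interval 75.1% to 99.9%), against 49.3% of all protein-coding genes, and the interval covers counting error alone. HDA4 was the single gene with no mark, a state found at 22.2% of all genes. Long genes carry the marks more often, and the series is long: 5 of the 20 were in the longest length decile and 9 in the one below it. All 3 marks were found at 72.95% and 71.0% of all genes in those deciles. The symbols were picked out with earlier results of these data known, so the counts are read beside these shares only.

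HDA9 had the longest covered length, in a stretch of chromosome 6 that it shares with many other annotated genes. H3K4me3 covered 2076 bp of the gene and 1 kb on either side, H3K56ac covered 2351 bp, and H3K36me3 covered 10649 bp of the 13254 bp gene, or 80.4%. The marks began at 1 end of the gene, with an H3K4me3 peak at Gm06:1704-2470, an H3K56ac peak at Gm06:1701-2463 and an H3K36me3 region at Gm06:1601-6000. These outer edges lay 48, 51 and 151 bp outside the gene. They were the first peak of the chromosome in each list. Coordinates are those of the authors' files, counted from 1, and the sources used here do not name their build.

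A second cluster lay deep inside HDA9. An H3K4me3 peak of 1309 bp at Gm06:9232-10540 began 7480 bp from the marked end, with an H3K56ac peak of 1248 bp inside it. A further H3K56ac peak of 340 bp, at 6528 to 6868 bp, had no H3K4me3 under it. The second H3K36me3 region, of 6400 bp, ran from 6449 to 12849 bp and spanned these peaks. The gap between both regions, from 4249 to 6449 bp, held no peak of any of the 3 marks.

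Most of this covered length could not be assigned to HDA9 itself. The table places 6 other genes over it, 4 of them protein-coding, and a number that high was found at 7 of 46816 protein-coding genes (0.0150%). In all, 94.2% of protein-coding genes overlapped no other gene. The inner H3K4me3 peak ran from 28 bp inside the far end of LOC100813472 to 36 bp inside the near end of LOC106799022. The peak at the marked end lay within a pseudogene, LOC106799120, that reached 330 bp outside HDA9, and also within LOC102667225, annotated as a miscellaneous RNA. The pseudogene ran to 11435 bp from the marked end, so the inner peak lay within it too. Only 85 bp of HDA9 lay outside every other annotated gene, and all 85 bp were under H3K36me3. When a peak was counted only for the gene nearest to its midpoint, with ties given to the shorter gene, HDA9 kept 0 bp of each mark. The gene table has no strand, so which of these genes a peak belongs to was not tested.

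HDA17, of 8471 bp on chromosome 17, lay wholly under H3K36me3. A single region of 11600 bp at Gm17:9620601-9632200 covered all of it and passed its marked end by 2926 bp. Among the 2080 other protein-coding genes within 10% of its length, 98.4% had less H3K36me3, and their median was 4956 bp with quartiles of 600 and 6564 bp. That place is no test, because HDA17 was chosen on covered length. Coverage was also counted inside the gene only, so every shorter gene among them had to have less. H3K4me3 at the marked end formed a peak of 924 bp at Gm17:9623517-9624440, and H3K56ac a peak of 908 bp at Gm17:9623515-9624422. Their outer edges differed by 2 bp.

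A neighbour contributed to the narrow marks counted at HDA17. LOC100790336, a protein-coding gene, ended 527 bp from the marked end of HDA17. A second H3K4me3 peak, of 1026 bp, began 419 bp outside HDA17 and reached into that gene. Of the 1505 bp of H3K4me3 counted at HDA17, 581 bp came from this peak, and of the 1504 bp of H3K56ac, 596 bp came from its H3K56ac partner. Without them the summed length of HDA17 would fall below those of SRT4 and HDA2. Both genes shared the 1 long H3K36me3 region. On the other side the nearest gene was MYB109, named as a MYB transcription factor, 2289 bp away.

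SRT4, a sirtuin gene of 12729 bp on chromosome 18, stood alone: its nearest annotated neighbours were 12885 and 29251 bp away. It carried 1 H3K4me3 peak, of 1244 bp at Gm18:7193120-7194363, and 1 H3K56ac peak, of 1038 bp at Gm18:7193201-7194238, at the same end. The H3K4me3 peak began 122 bp outside the gene and the H3K56ac peak 3 bp inside it. The H3K56ac peak lay wholly under the H3K4me3 peak. Neither mark had another peak in the gene or within 1 kb of it.

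H3K36me3 at SRT4 was broken into 3 regions. From the marked end they ran over 41 to 3441 bp, 5241 to 6641 bp and 7441 to 11241 bp, which left 1488 bp at the far end uncovered. Together they covered 8600 bp, or 67.6% of the gene. Among 813 genes within 10% of its length the median was 7600 bp of H3K36me3, 1117 bp of H3K4me3 and 1046 bp of H3K56ac. SRT4 thus stood near the middle of long genes for the narrow marks, with more H3K56ac than 49.5% of them, more H3K4me3 than 61.9% and more H3K36me3 than 59.9%. More than 1 H3K36me3 region was found at 6 of the 19 marked HDA and SRT genes, against 21.8% of all protein-coding genes with the mark.

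HDA4, of 579 bp on chromosome 4, had 0 bp of each mark, and no peak lay within 4 kb of it. The nearest H3K4me3, H3K56ac and H3K36me3 ended 4847, 4945 and 4888 bp away on the side of HDA3. That gene is the nearest neighbour, 4967 bp off, and the marks are those at its facing end. On the other side the nearest peaks were 46363, 42883 and 85133 bp away. Genes as short as HDA4 were mostly unmarked. Of the 790 other protein-coding genes within 10% of its length, 544 had no mark (68.9%, exact 95% interval 65.5 to 72.1) and 49 had all 3 (6.20%, interval 4.62 to 8.12). The lack of a call at HDA4 thus matched what most genes of its length showed, and it says nothing of signal below the authors' threshold.

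**Figure D1:**
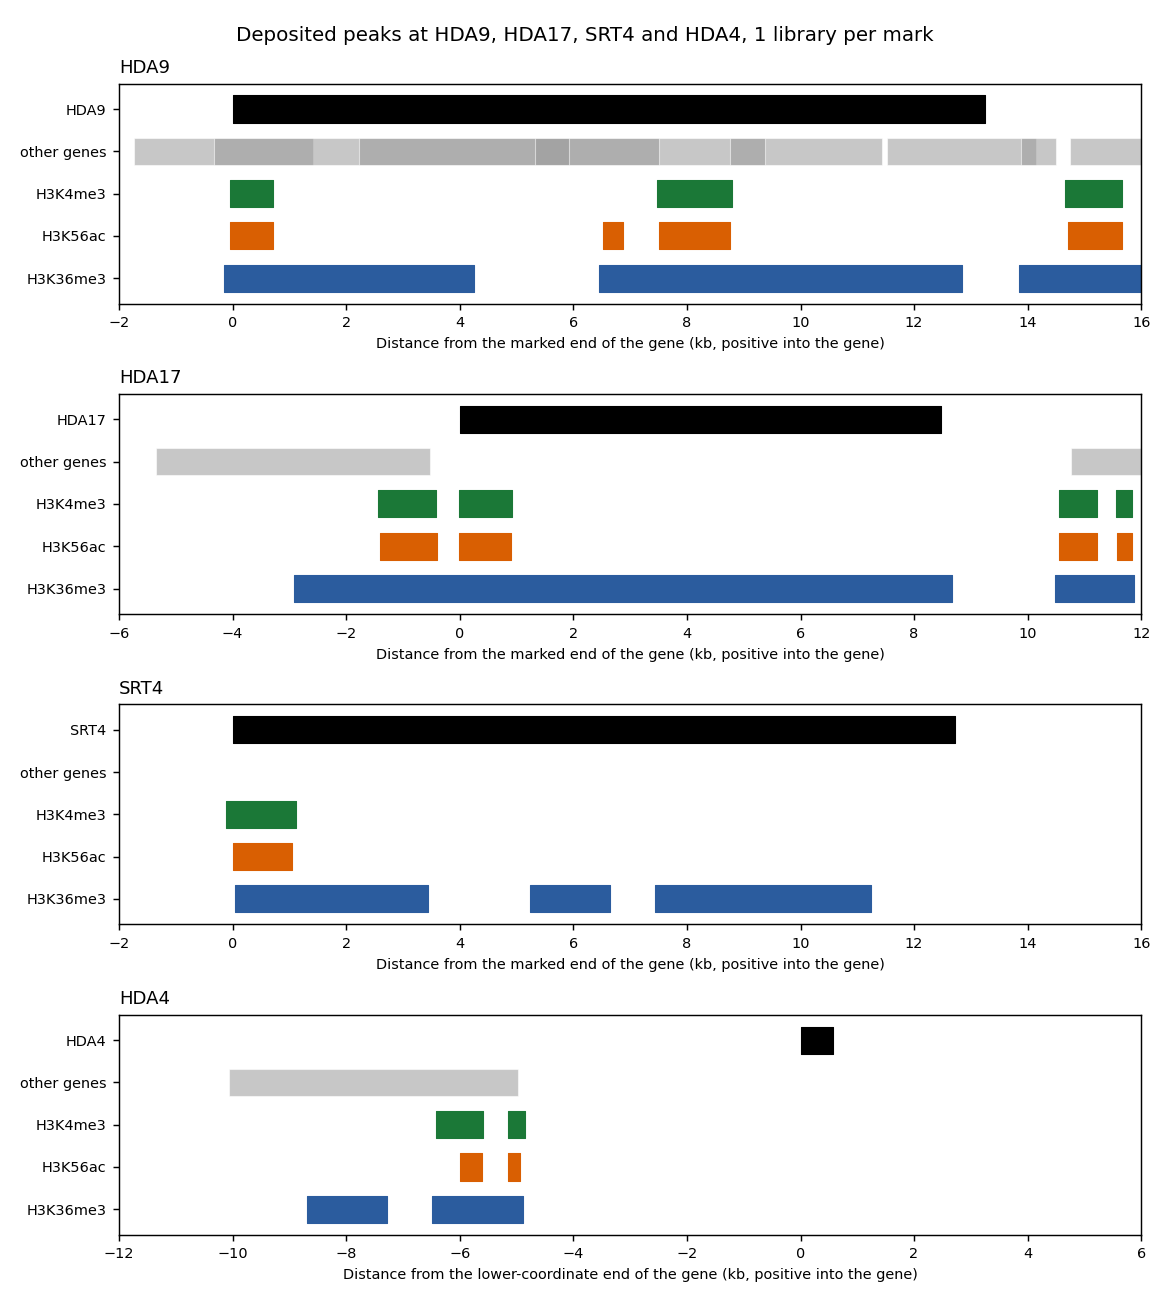
Deposited peaks at the 4 genes, drawn against the distance in kb from the marked end (for HDA4, from its end with the lower coordinate). Black bars are the named gene, grey bars other annotated genes (overlaps darker), and coloured bars the peaks of 1 library per mark. HDA9 is overlain by 6 other genes and has a second cluster of peaks about 7480 bp inside. SRT4 has no neighbour in the stretch drawn and 3 H3K36me3 regions, and HDA4 lies 4967 bp from the marked HDA3.

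The other 16 genes of the series had all 3 marks without exception. Over the 19 marked genes H3K4me3 covered 723 to 2076 bp with a median of 1240 bp, and H3K56ac covered 606 to 2351 bp with a median of 1038 bp. Over all 23074 protein-coding genes with all 3 marks the medians were 1227 and 1152 bp. H3K36me3 covered 1800 to 10649 bp with a median of 6248 bp, or from 47.0% to the whole of the gene with a median of 80.4%. Over the 23074 genes these medians were 2800 bp and 73.3%. The median gene length was 6647 bp for the 19 genes, against 4385 bp for the 23074. The narrow marks were thus about as long at the deacetylase genes as elsewhere, and H3K36me3 was longer at genes that were themselves longer.

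H3K36me3 covered the whole gene at 5 of 20 HDA and SRT genes, against 6.01% of all protein-coding genes. That share is 2813 of 46816 genes, of which 23935 had any H3K36me3, while 19 of the 20 had it. Beside HDA17 the wholly covered genes of the series were HDA2, HDA6, HDA15 and HDA18. HDA2, the longest of the other 16 genes at 9201 bp, lay under a region of 10000 bp, although its H3K4me3 and H3K56ac, with 723 and 697 bp, were among the shortest of the series. HDA11, of 8740 bp, had 79.4% of its length under H3K36me3, and HDA1, of 8055 bp, had 67.1%. HDA11 was the only other gene of the series that overlapped annotated genes, 2 of them.

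At the low end stood the short genes. HDA16, of 3827 bp, had 47.0% of its length under H3K36me3, HDA7, of 4363 bp, had 50.1%, and HDA3, of 5094 bp, had 57.3%. HDA14, the shortest marked gene at 3259 bp, had 74.0%. At HDA16 the count of narrow marks included a peak of the next gene, LOC100819757, 496 bp away: 352 of its 1518 bp of H3K4me3 and 478 of its 1494 bp of H3K56ac came from there. The 3 sirtuin genes were close to each other in the narrow marks. SRT4, SRT1 and SRT2 had 1244, 1274 and 1213 bp of H3K4me3, and 1038, 837 and 773 bp of H3K56ac. H3K36me3 covered 67.6% of SRT4, 95.3% of SRT1 and 94.0% of SRT2.

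**Figure D2:**
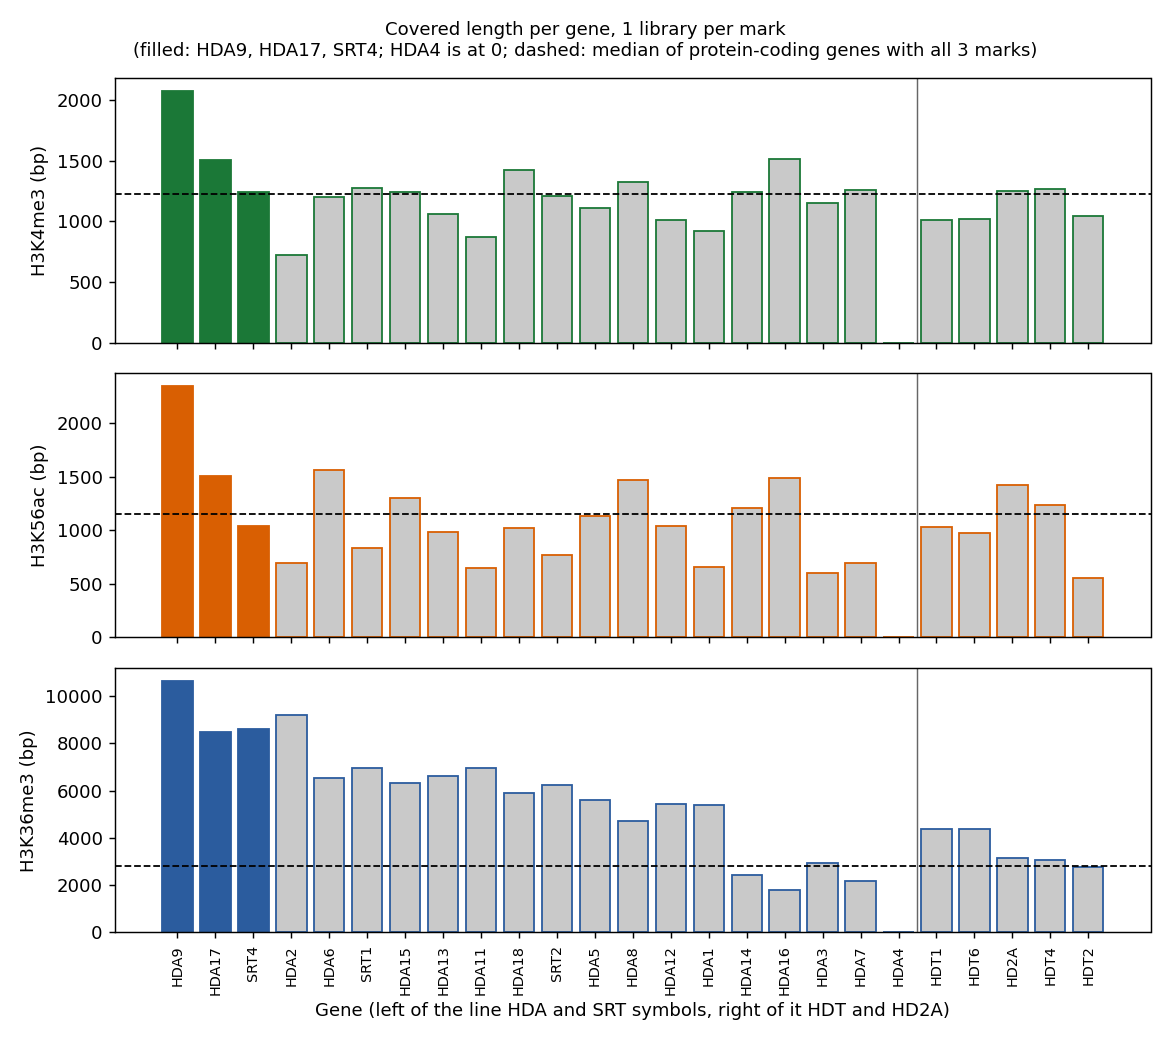
Covered length in bp of H3K4me3, H3K56ac and H3K36me3 at each gene, 1 library per mark, for HDA and SRT genes in order of summed length and then for HDT genes and HD2A. Filled bars are HDA9, HDA17 and SRT4, HDA4 is at 0, and dashed lines are the medians of protein-coding genes with all 3 marks (1227, 1152 and 2800 bp). The narrow marks scatter around their lines, while H3K36me3 lies above its line at most HDA and SRT genes and below it at HDA14, HDA16 and HDA7.

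The marks lay at the 19 genes much as they did at other marked genes. H3K4me3 lay within 500 bp of a single end at 19 of 20 HDA and SRT genes, against 55.2% of all protein-coding genes, and this is called the marked end. The outer edge of H3K4me3 was a median 92 bp outside that end, and 18 of 19 edges were within 200 bp of it. For 9039 protein-coding genes with all 3 marks, H3K4me3 at a single end and no other gene within 2 kb, called isolated genes here, the median was 79 bp outside and 89.8% of edges were within 200 bp. The HDA and SRT genes were not filtered for neighbours. HDA9 and HDA11 overlap other genes, and HDA2, HDA12, HDA13, HDA14, HDA16, HDA17, SRT1 and SRT2 have another gene within 2 kb. The edge of H3K56ac at the HDA and SRT genes was a median 12 bp outside, and 19 of 19 were within 200 bp. At the isolated genes it was a median 45 bp outside, with 87.4% within 200 bp of the end. H3K36me3 was looser: its edges ran from 2926 bp outside to 192 bp inside the HDA and SRT genes, and 16 of 19 were within 200 bp, against 73.7% at the isolated genes. The shares of isolated genes are of those with a peak of the mark within 500 bp of the end. H3K4me3 reached farther out than H3K56ac at 13 of 19 HDA and SRT genes, and at 67.8% of the isolated genes with a value for both marks. HDA5 stood apart from the series, with an H3K4me3 edge 175 bp inside the gene.

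Toward the inside the narrow marks near the marked end stopped by about 1500 bp, the farthest being H3K4me3 at HDA7, which ended at 1522 bp. At 900 to 1000 bp from the marked end 13 of 19 HDA and SRT genes had H3K4me3, against 69.9% of the isolated genes, and 10 of 19 had H3K56ac, against 57.3%. At 1400 to 1500 bp 2 of 19 had H3K4me3, against 19.9%, and from 1500 to 5000 bp none did, against 15.1% of the isolated genes at 1500 to 1600 bp. None of the 19 had H3K56ac from 1300 to 5000 bp, against 19.6% of the isolated genes at 1300 to 1400 bp. A bin of 100 bp counted as marked when a peak covered at least 50% of it. The inner cluster of HDA9 lies beyond that range. H3K36me3 was present at all 19 genes from 200 to 700 bp, where 93.4% to 95.6% of the isolated genes had it. It was present at 17 of 19 from 2000 to 2100 bp, against 71.2% of the isolated genes, and at 11 of 16 genes long enough at 4900 to 5000 bp, against 53.3%. On the side of the gene's midpoint nearer the marked end a larger share lay under H3K36me3 at 13 of 19 genes, both sides were wholly covered at 5, and the far side had more at HDA9 alone, with 66.8% near and 93.9% far. Among the isolated genes the near side had more at 83.7%, both sides were wholly covered at 6.05%, and the far side had more at 10.2%. Over the 19 genes the median was full coverage nearer the marked end and 77.1% beyond the midpoint, against 98.6% and 51.6% over the isolated genes. The 19 genes were neither filtered for neighbours nor matched for length, and the source of their higher coverage was not tested. Their H3K36me3 thus leaned to the marked end as it did at most other genes.

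**Figure D3:**
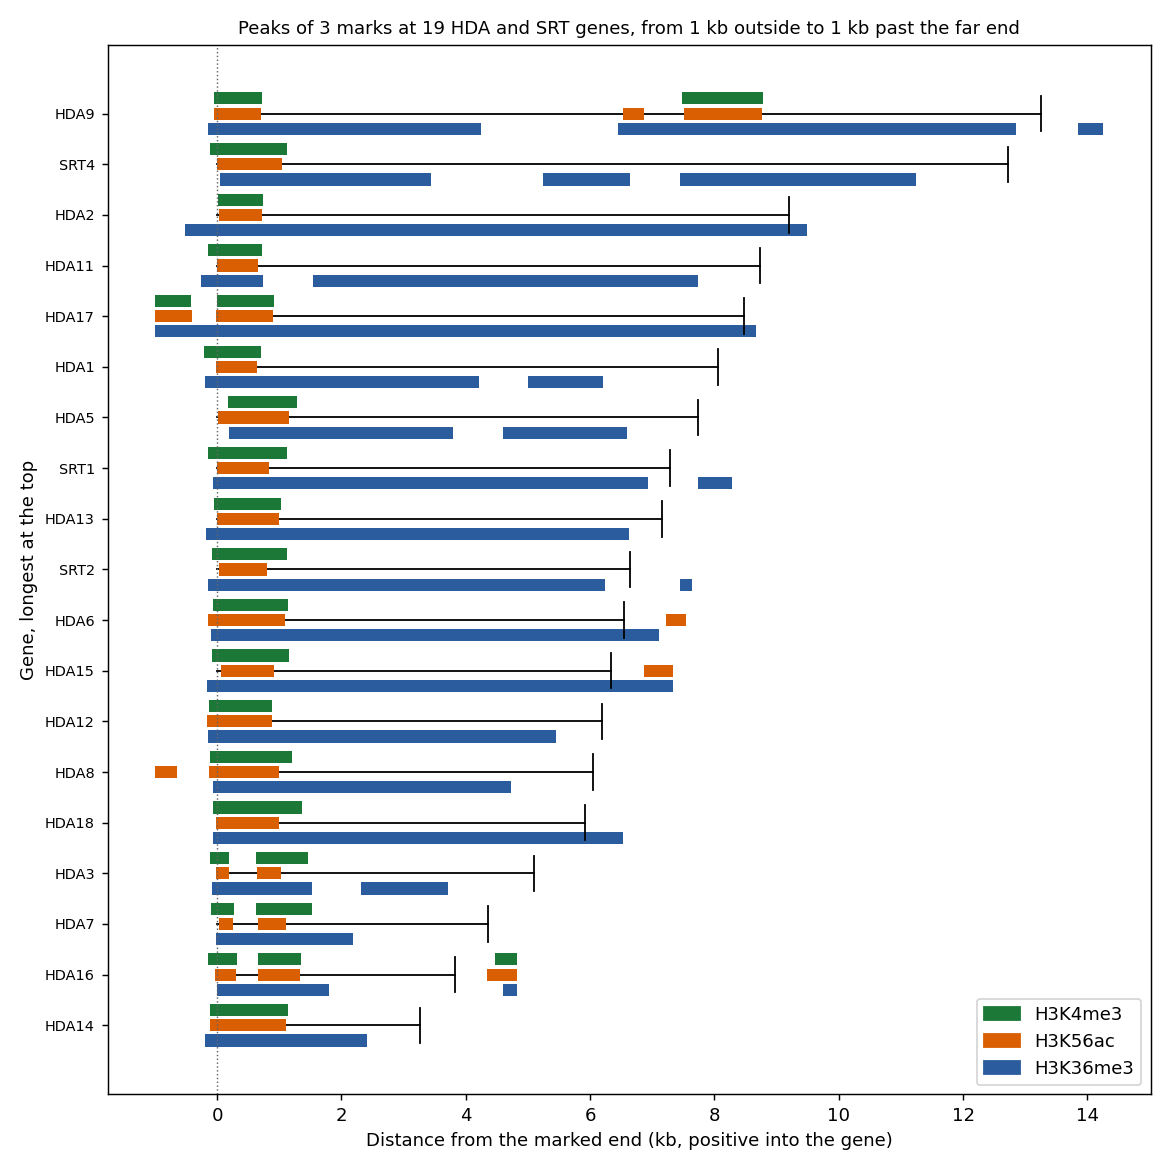
Peaks of the 3 marks at the 19 marked HDA and SRT genes, each row a gene turned so that its marked end is at 0 kb and cut at 1 kb outside either end. The thin line is the gene, closed by a bar at its far end. Narrow marks sit at 0 to about 1.5 kb in every row, HDA9 has a second cluster inside the gene, and HDA3, HDA7 and HDA16 have a gap in both narrow marks.

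**Figure D4:**
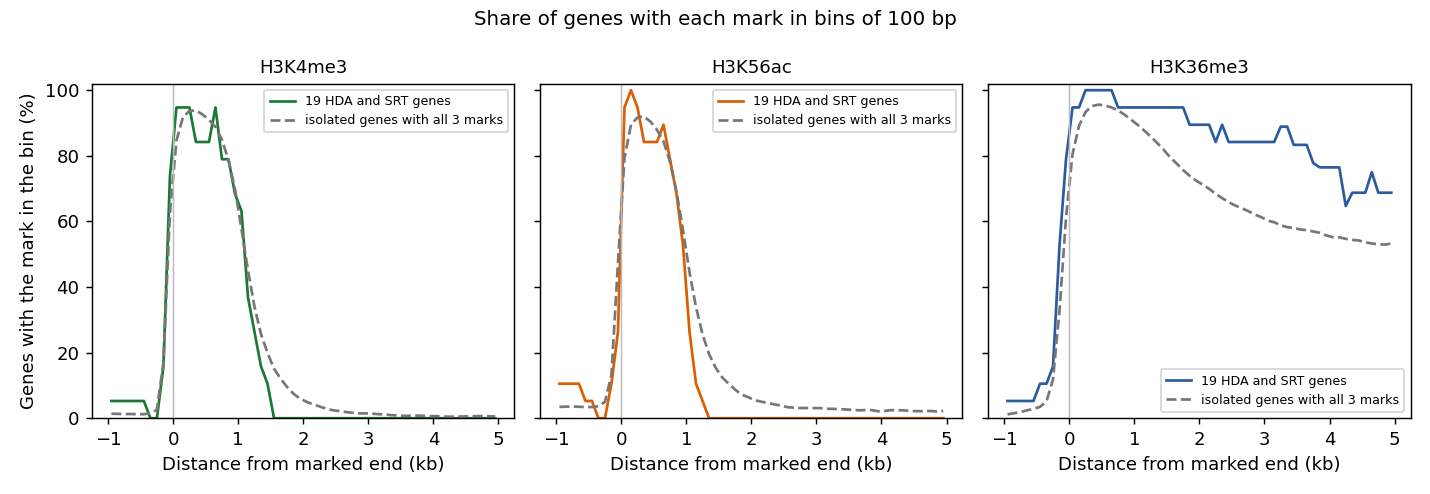
Share of genes with each mark in bins of 100 bp from the marked end, solid for the 19 HDA and SRT genes and dashed for 9039 isolated protein-coding genes with all 3 marks. A gene enters a bin only if it is at least that long. H3K4me3 and H3K56ac of the deacetylase genes are at 0% from 1.5 to 5 kb, and their H3K36me3 stays above the dashed line from the marked end to 5 kb. The lists were not matched for length, and the HDA and SRT genes were not filtered for neighbours.

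The narrow marks were split in HDA3, HDA7 and HDA16, a pattern picked out after the values were seen. At HDA3 H3K4me3 ran to 191 bp from the marked end and began again at 618 bp, a gap of 427 bp. At HDA7 it stopped at 274 bp and resumed at 627 bp, a gap of 353 bp. At HDA16 it stopped at 318 bp and resumed at 651 bp, a gap of 333 bp. H3K56ac had its gap at nearly the same place, from 190 to 638 bp at HDA3, 262 to 649 bp at HDA7 and 307 to 664 bp at HDA16. H3K36me3 covered all 3 gaps without a break. A split of H3K4me3 within the first 2 kb, with a gap of up to 500 bp, was found at 3 of 19 HDA and SRT genes, against 7.5% of all protein-coding genes with H3K4me3 at a single end. A split of both narrow marks was found at the same 3 of 19, against 3.84% of those genes. These 3 genes are also those with the lowest shares of H3K36me3.

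Most H3K56ac at these genes lay with H3K4me3, as it did at other marked genes. Of 29 H3K56ac peaks counted at the series, 3 had no H3K4me3 under them (10.3%), against 15.7% of the peaks counted at all 23074 protein-coding genes with all 3 marks and 30.0% of the whole H3K56ac list. They were the inner peak of HDA9, a peak of 435 bp that began 642 bp outside the marked end of HDA8, and a peak of 551 bp past the far end of HDA6. The share of H3K56ac length that lay under H3K4me3 was at least 64.7% per gene, and the median gene had all of it there. Over the 23074 genes the median was 98.1%. The share was 85.4% at HDA9 and 98.9% at HDA17, and SRT4 had all of it there. HDA15 had the lowest share through a peak past its far end.

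Other genes of histone acetylation, deacetylation and related steps were looked up by a list of symbol stems, of which HDT, HD2 and FLD occur in the table. All 3 marks were found at 6 of these 6 genes, HDT1, HDT2, HDT4, HDT6, HD2A and FLD (exact 95% interval 54.1% to 100%). The share over all protein-coding genes was 49.3%. In length deciles 5 to 9, within which these genes fall, it was 52.7% to 71.0%. No symbol of the listed acetyltransferase stems was matched. The 5 HDT and HD2A genes were shorter than the HDA and SRT genes, with a median of 3333 bp, and more evenly covered by H3K36me3, over at least 87.4% of the gene. They had 1013 to 1265 bp of H3K4me3 and 552 to 1421 bp of H3K56ac. HD2A was unusual in that its H3K56ac peak began 911 bp outside the gene and 50.3% of the mark lay under H3K4me3. FLD, which in Arabidopsis codes for a homologue of histone demethylases that acts on flowering time, had 1516, 1486 and 5901 bp of H3K4me3, H3K56ac and H3K36me3.

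The genes most like each of the 4 were sought among the 2328 other protein-coding genes that have a name other than a LOC number. The measure was the Euclidean distance over log2 of covered bp + 100 for the 3 marks and log2 of gene length, so it rests on 1 library per mark. Closest to HDA9 were ACSL2 (distance 0.407), named as a long-chain acyl-CoA synthetase, ZEP (0.463), named as a zeaxanthin epoxidase, and ALDH22A2 (0.660), an aldehyde dehydrogenase gene. Closest to HDA17 were PEPC17 (0.229), a phosphoenolpyruvate carboxylase gene, MEKK (0.236) and LHP1-2 (0.244). Closest to SRT4 were BZIP93 (0.265) and ALDH5F1 (0.299). HDA9 was thus farther from its nearest gene than HDA17 or SRT4 from theirs. For HDA4, 5 of the 2328 genes were within 10% of its length and had no peak either.

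The labelled tissue was checked on marker genes of leaf, seed and root nodule. All 5 leaf genes, RBCS1, RCABETA, CAB3, FTRC and HEMG, had H3K4me3 and H3K56ac, and 4 of them also H3K36me3. Of the 5 seed genes 4 carried H3K4me3, with 2376 bp at GY7, 1137 bp at GY2, 678 bp at GY3 and 246 bp at GY1. At GY2 and GY7 it lay within 1 kb of an end, and at GY1 and GY3 farther inside. LOX2 had 0 bp of it, and H3K56ac and H3K36me3 were at 0 bp at all 5. By H3K4me3 alone 4 seed genes thus went against the labelled tissue. The 4 leghemoglobin genes and the nodulin gene N-70 had 0 bp of every mark.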

How the data were processed

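Leaf chromatin was fixed with 1% formaldehyde, sonicated and immunoprecipitated, per the labels' protocols. Per the submitters' processing notes the tools were Trimmomatic, Bowtie2, Picard, MACS2 and SICER, with no versions. The sources used here do not say which of them made which list, nor the thresholds, the use of the input or the soybean build. For soybean the series' design text lists H3K4me1 instead of H3K4me3, and the label of the antibody, H3K4me3, was used. The values deposited by the authors are peak positions in bp, 1 list per sample, with no score. They held 51233 H3K4me3 and 60550 H3K56ac peaks and 32245 H3K36me3 regions, with medians of 860, 729 and 2400 bp on the chromosomes. Starts of H3K36me3 regions are multiples of 200 bp and the ends 1 bp short of one, so ends were moved by 1 bp.

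Genes came from a RefSeq table without strand. Per chromosome, 34.1% to 41.4% of H3K4me3 midpoints fell at most 500 bp from an end of a protein-coding gene, and at most 18.7% after shifts of 20 kb. H3K4me3 edges lay within 200 bp of a gene end at 18 of 19 HDA and SRT genes, and at 0 and 1 after the shifts. The 19 genes were taken for H3K4me3 within 500 bp of an end before any shift, so their count could not test the fit. On the ground of the midpoint shares, peaks were overlapped with the table, whose coordinates are not printed.

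H3K4me3 and H3K56ac were called at a gene from 1 bp of overlap with a window of 1 kb either side of an end, H3K36me3 from 1 bp of overlap with the gene itself. Covered lengths of the narrow marks include 1 kb either side. Intervals are exact (Clopper-Pearson, scipy 1.17.1). Overlap code was tested on simulated intervals. The genes and lists were chosen with earlier results of these data known. Genes were named by rule: the 4 genes, extremes of length and of H3K36me3 share in the series, the 3 most alike (1 of them is not reported here), neighbours and tissue markers. HDA5, HDA8 and the split peaks were chosen after their values were seen. With 1 library per mark no test was made between samples.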

Additional observations from a re-analysis of the deposited data

How the results depend on the processing

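The count of HDA and SRT genes with all 3 marks was 18 or 19 of 20 under 5 of the other planned settings. Under these, 17927 to 23129 of 46816 protein-coding genes had all 3 marks. The longer 50% of each list moved the count. There 12 of 20 HDA and SRT genes and 10807 of 46816 protein-coding genes kept all 3 marks, and HDA1, HDA2, HDA3, HDA7, HDA9, HDA11 and HDA16 lost 1 or more. HDA9 dropped out when a peak counted for the nearest gene alone, where 21838 protein-coding genes kept all 3 marks. HDA16 dropped out when H3K36me3 had to cover 50% of the gene, where 17927 kept them. With HDT and HD2 symbols added, a setting chosen after seeing the data, the count was 24 of 25, against 49.3% of all protein-coding genes.

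Covered lengths changed in 22 of 72 combinations of gene, mark and setting. Over the gene alone HDA9 had 2028 bp of H3K4me3 and 2300 bp of H3K56ac, HDA17 had 914 and 896 bp, and SRT4 had 1122 bp of H3K4me3. With 500 bp either side HDA17 had 1005 and 1004 bp. In the longer 50% of each list HDA9 had 1309 and 2011 bp, and SRT4 had 7200 bp of H3K36me3. Counted for the nearest gene, HDA9 had 0 bp of each mark, and HDA17 had 924 bp of H3K4me3 and 908 bp of H3K56ac. With region ends as deposited, H3K36me3 was 10647 bp at HDA9 and 8597 bp at SRT4. Without bases in other genes, a setting chosen after seeing the data, HDA9 had 0, 0 and 85 bp, and HDA17 had 1032 bp of H3K4me3 and 1031 bp of H3K56ac. HDA4 stayed at 0 bp in every setting run.

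No paired analysis was possible because each mark had 1 library. Depth, signal below the authors' thresholds and the strand of the genes limit every value.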

Other observations

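Several deacetylase genes lay near an end of the H3K4me3 list of their chromosome, a pattern noticed after the values were seen. The cut of 10 peaks used below was also set then. A place in the list is not a distance to the chromosome end. The H3K4me3 peak at the marked end was the first of its chromosome's list at HDA9 and at HDA2. It was number 2 at HDA11 on chromosome 11, and at HDA1 it was number 7 from the other end of the list of chromosome 1. A peak among the 10 nearest to an end of the list was thus found at 4 of 19 HDA and SRT genes, against 0.920% of 25858 protein-coding genes with H3K4me3 at a single end. HDA2, HDA9 and HDA11 were also among the longest genes of the series.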
